A study of Mus musculus with 10 samples.

Results

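Yap1, Birc2 and Birc3 lie side by side on mouse chromosome 9, and 7 further genes from the same stretch were followed with them: Mmp3, Mmp13, Tmem123, Dcun1d5, Casp4, Casp12 and Arhgap42. These 10 genes, of 23337 gene rows in each library, were chosen by name as chromosome 9 neighbours that share a difference between WT-labelled and KO-labelled cells, so that difference is described here without a test. Their outermost ends span chr9:5308828-9239101 on GRCm38 (GENCODE M21), a stretch of 3.93 Mb, while Mmp13 to Yap1 covers 0.73 Mb (chr9:7272514-8004596). The WT-labelled group lay wholly above the KO-labelled group for 8 of the 10 in each treatment. Of all tested genes, 15.9% did so untreated and 20.4% with IFN-β. As the difference chose the members, nothing is read from that count. In Casp12 the WT-labelled and KO-labelled groups overlapped, and in Arhgap42 they overlapped at about equal levels.

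RNA was sequenced from immortalised MEFs, the fibroblasts that grow out of mouse embryos in culture, labelled Slfn2 WT (intact gene) or Slfn2 KO (knockout). Cells were left untreated or received mouse interferon-β (IFN-β, a type I interferon) at 5000 IU/ml for 6 h. Untreated and IFN-β groups each had 3 libraries of WT-labelled and 2 of KO-labelled cells. The labels describe replicates as repeat platings and name no separate lines or embryos, so p-values measure the spread between platings, which may be technical, and how the knockout was made is not given in the sources used here. Both cultures were immortalised.

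YAP1 is a transcriptional co-activator that the Hippo kinases hold in the cytoplasm; in the nucleus it binds TEAD factors and drives growth and matrix genes, and fibroblasts use it to respond to stiffness and spreading. BIRC2 and BIRC3 (cIAP1 and cIAP2) are ubiquitin ligases that, with TRAF proteins, keep the kinase NIK low and restrain non-canonical NF-κB signalling while protecting cells from death after TNF. MMP3 and MMP13 are secreted proteases that cut matrix and collagen. CASP4 (also called caspase-11 in mice) senses bacterial lipopolysaccharide in the cytosol and cleaves gasdermin D. The stretch holding Yap1 and Birc2 is known from mouse tumours, where it recurs as an amplified segment. DNA copy number was not measured in these samples.

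Promoter sequence is shown for 5 of the 10 genes: Yap1 as the most abundant, Mmp3 and Mmp13 as the pair at or near 0 in KO-labelled cells, and Casp4 and Casp12 as the pair with the largest IFN-β fold changes in KO-labelled cells. Each is the 150 bases before a RefSeq gene start (GRCm38.p6), 5′ to 3′ on the gene's strand, with capitals on the motif matches, which do not overlap one another. The Yap1 stretch (chr9:8004597-8004746, minus strand) holds a TEAD match, CATTCC on either strand. Both Mmp stretches (Mmp3 at chr9:7445672-7445821, Mmp13 at chr9:7272364-7272513, plus strand) hold an AP-1 match, TGANTCA, and a TATA match, TATAAA, and the Mmp13 stretch also holds an interferon-response match, GAAA repeated after 2 bases of any kind. In Casp4 (chr9:5308699-5308848, plus strand) the capitals mark 2 NF-κB matches, GGG and TTTCC with 2 bases of any kind between them, on either strand, and in Casp12 (chr9:5345326-5345475, plus strand) they mark 2 GAS matches, TTCNNNGAA, the form bound by STAT dimers.
Yap1: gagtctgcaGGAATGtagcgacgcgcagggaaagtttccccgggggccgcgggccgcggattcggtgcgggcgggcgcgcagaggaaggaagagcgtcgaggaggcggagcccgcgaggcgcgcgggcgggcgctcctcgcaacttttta
Mmp3: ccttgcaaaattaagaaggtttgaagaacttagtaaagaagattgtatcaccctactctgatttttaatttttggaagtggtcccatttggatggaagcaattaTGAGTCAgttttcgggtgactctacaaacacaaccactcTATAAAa
Mmp13: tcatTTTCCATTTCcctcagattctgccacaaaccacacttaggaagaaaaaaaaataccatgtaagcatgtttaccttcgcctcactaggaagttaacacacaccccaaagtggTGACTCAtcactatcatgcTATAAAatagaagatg
Casp4: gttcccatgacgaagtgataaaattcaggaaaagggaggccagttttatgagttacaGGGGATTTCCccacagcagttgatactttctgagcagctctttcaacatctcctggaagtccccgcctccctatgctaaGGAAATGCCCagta
Casp12: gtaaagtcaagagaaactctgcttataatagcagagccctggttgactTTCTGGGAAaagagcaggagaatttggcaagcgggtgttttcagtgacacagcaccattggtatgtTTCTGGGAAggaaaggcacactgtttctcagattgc

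All 10 genes had a RefSeq promoter window, from 250 bases before to 50 after a start. Among 32851 such windows, both strands searched, 14.7% held the TEAD letters, 7.81% the AP-1 letters, 13.6% the TATA letters, 3.44% the interferon-response letters, 1.63% the NF-κB letters and 8.3% the GAS letters. A match describes the sequence and was not tested as a binding site.

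Recovered depth was 13565815 to 16329729 reads per library, and values below are normalised reads, that is reads per gene after the authors' scaling by library. Fibroblast markers summed to between 212827 and 479085 normalised reads in every library, and epithelial, endothelial and muscle markers to at most 20.2. Cartilage and bone markers summed to 1327 to 4339 and neural markers to 1022 to 4286. Slfn2 itself read 15.5 to 18.7 in untreated WT-labelled cells and 34.9 and 46.1 in untreated KO-labelled cells. Its RNA was thus not lower under the KO label without IFN-β. That difference did not pass by limma (adjusted p = 0.091) but passed with the replicate number as a block (0.039). As the kind of knockout is not given, these reads do not test the label. With IFN-β Slfn2 was at 449 to 573 in WT-labelled and 75 and 171 in KO-labelled cells. The cultures also differed beyond Slfn2: the Y-linked Kdm5d read 84.5 to 175 in WT-labelled and at most 0.911 in KO-labelled libraries. Every difference between labels below is therefore a difference between these cultures, and the part that Slfn2 has in it cannot be told apart.

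Yap1 was among the most abundant transcripts of the WT-labelled cells, ranking between 4 and 12 by reads of 23337 rows. Untreated WT-labelled libraries held 40250, 43507 and 54901 normalised reads, and those with IFN-β 43242, 58837 and 60301. In KO-labelled cells the libraries read 2947 and 2725 without and 3284 and 3310 with the cytokine, at ranks 887 to 1132. The lowest WT-labelled library thus lay far above the highest KO-labelled library. The ratio of group means, WT-labelled over KO-labelled, was 16.3 untreated and 16.4 with IFN-β. In bulk RNA, fewer cells with the transcript and less RNA per cell cannot be told apart. Per kilobase of exon, Yap1 in untreated WT-labelled cells stood at 4993 ± 831 (SD, n = 3), and Tmem123 came next at 2456 ± 653 (SD, n = 3). On the same per-kilobase scale Dcun1d5 was at 778, Birc2 at 509 and Birc3 at 311, and the lowest members were Mmp13 at 28.5 and Casp4 at 25.7, which lie within each other's spread.

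Birc2 and Birc3, both on the minus strand next to Yap1, were also higher in every WT-labelled library. Birc2 read 1760, 2171 and 3063 in untreated WT-labelled and 397 and 448 in untreated KO-labelled cells, and with IFN-β 1699, 2817 and 3257 against 448 and 673. Its ratio of means was 5.51 untreated and 4.62 with IFN-β. Birc3 differed more, with 1117, 1667 and 1891 in untreated WT-labelled and 25.2 and 69.7 in untreated KO-labelled cells, and with IFN-β 1079, 1915 and 1720 against 38 and 52.9. Its ratios, 32.8 and 34.6, were the largest among members with reads in every KO-labelled library. Its log2 difference untreated, -5.15, was -4.43 without the KO-labelled library numbered 1 and -5.86 without number 2. No Birc2 or Birc3 library of one label entered the range of the other.

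Mmp3 and Mmp13 were read in WT-labelled cells and were at or near 0 in KO-labelled cells. Mmp3 held 296, 106 and 418 normalised reads untreated and 268, 96 and 328 with IFN-β in WT-labelled libraries, and 0 in all 4 KO-labelled libraries. Against a floor of 3 reads per library, it was at least 91.6-fold higher in WT-labelled cells untreated and at least 78.2-fold with IFN-β. In WT-labelled libraries Mmp13 read 107, 15.5 and 106 before and 132, 69 and 145 after IFN-β. Its only reads in KO-labelled cells were 2 reads (1.82 normalised) in the library numbered 2 with IFN-β. It was at least 25.5-fold higher untreated, and with IFN-β the ratio was 127 with a 95% counting interval of 32.5 to 980. Both genes passed the low-count filter only through the WT-labelled groups. In both, the library numbered 2 was the lowest of each WT-labelled group.

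Tmem123 and Dcun1d5 showed smaller differences. Tmem123, a mucin-like surface protein, read 8623, 5301 and 8982 in untreated WT-labelled and 3319 and 1054 in untreated KO-labelled cells, and with IFN-β 7630, 6575 and 8466 against 2931 and 971. The ratio of means was 3.49 and 3.87, and within each KO-labelled group the libraries differed by about as much as the groups did. Dcun1d5, which promotes the attachment of NEDD8 to cullins, read 2484, 2419 and 2277 against 1877 and 1265 untreated, and 2445, 2003 and 2201 against 1884 and 1274 with IFN-β, a ratio of 1.52 and 1.4. Without the KO-labelled library numbered 2, its log2 difference moved from -0.63 to -0.35 untreated and from -0.51 to -0.23 with IFN-β, and that of Tmem123 from -1.99 to -1.16 and from -2.16 to -1.36.

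At the outer ends the pattern was uneven. Casp4 read 35.1, 179 and 72.3 in untreated WT-labelled and 2.1 and 9.42 in untreated KO-labelled cells, a ratio of 16.6, and 501, 756 and 603 against 86.6 and 177 with IFN-β, a ratio of 4.71. The untreated library at 2.1 lies under the floor of 3 reads, and the untreated log2 difference of -3.78 was -2.91 without that library and -4.66 without the KO-labelled library numbered 2. Casp12, an inflammatory caspase relative found at the endoplasmic reticulum, read 210, 626 and 547 against 69.2 and 407 untreated and 591, 1494 and 1363 against 366 and 1273 with IFN-β. The Casp12 groups overlapped in both treatments, and its untreated log2 difference of -1.30 was -0.03 without the KO-labelled library numbered 1 and -2.57 without number 2. With IFN-β its difference of -0.64 ran from -1.54 to 0.26 without 1 library. Arhgap42 read 673, 509 and 685 against 468 and 792 untreated and 687, 795 and 699 against 488 and 840 with IFN-β, and its KO-labelled libraries lay on both sides of the WT-labelled ones.

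Across the 10 genes the median log2 difference, KO-labelled minus WT-labelled, was -3.1 untreated and -2.24 with IFN-β, where the median over all 12313 genes tested was 0.0. The WT-labelled group lay wholly above the KO-labelled group for 8 of 10 in each treatment, against 15.9% of all tested genes untreated and 20.4% with IFN-β. All 6 WT-labelled libraries lay above all 4 KO-labelled libraries for 7 of 10, against 9.83% of tested genes. Since the difference chose the members, nothing is read from these shares.

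**Figure D1:**
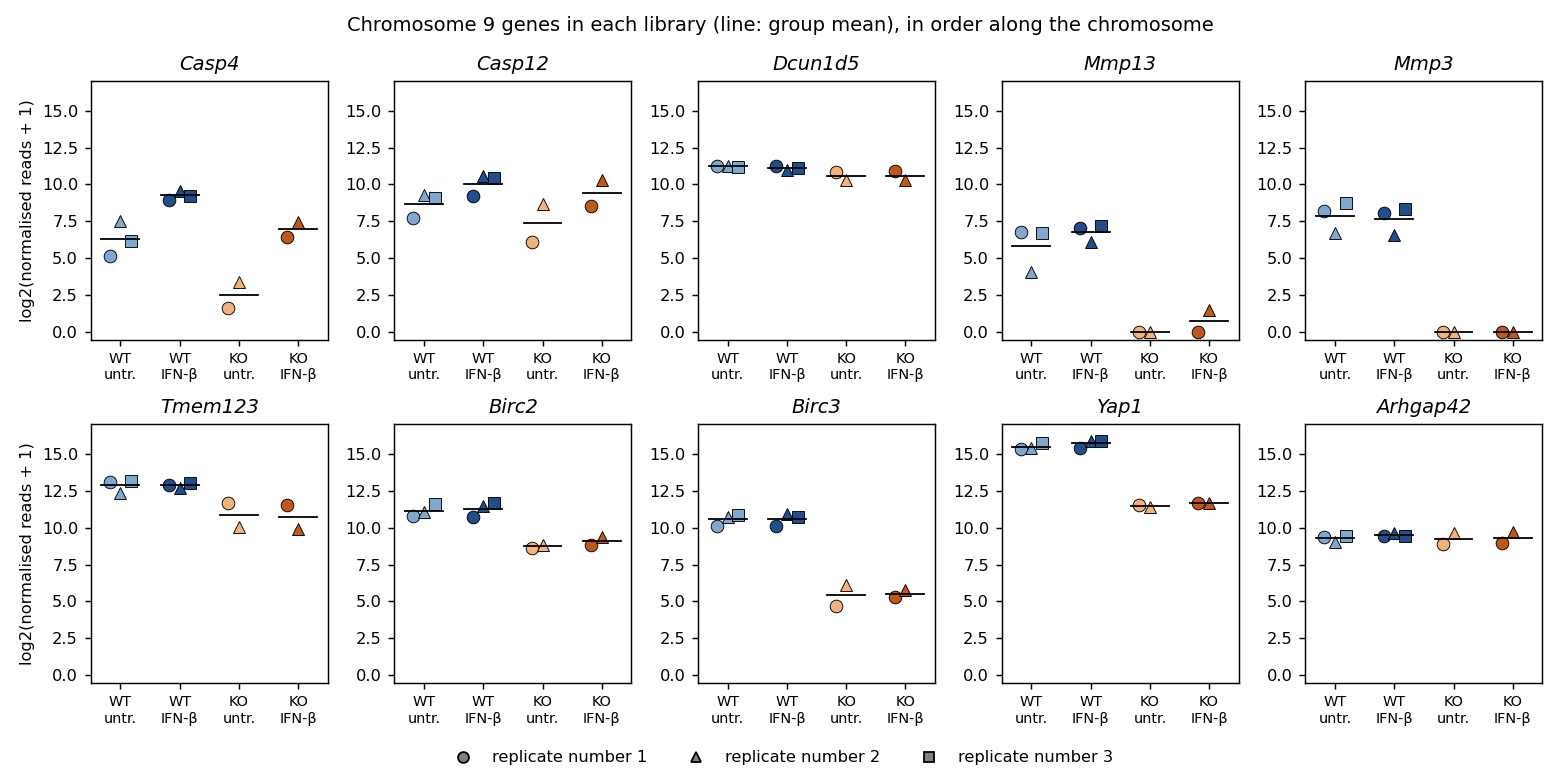
Each panel plots 1 gene, with log2(normalised reads + 1) on the vertical axis and the 4 groups on the horizontal axis; points are libraries, shapes are replicate numbers and lines are means of the log2 values. Yap1, Birc2, Birc3, Mmp3 and Mmp13 separate the labels widely, Arhgap42 does not, and in Casp12 the replicate numbers spread as far as the labels.

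The annotation places 17 more genes of the data between the outermost members, of which 4 had enough reads to test. The gene next to Yap1, 9230110C19Rik (RefSeq name Cfap300, a cilia- and flagella-associated protein; chr9:8021672-8042875), read 1626, 1973 and 2136 in untreated WT-labelled and 87 and 137 in untreated KO-labelled cells. With IFN-β it read 1490, 1965 and 2003 against 91.9 and 92. It was lower in KO-labelled cells by a log2 difference of -4.11 ± 0.23 (SE, adjusted p = 2.7e-05) untreated and -4.28 ± 0.23 (SE, adjusted p = 2e-05) with IFN-β, a ratio of 17.1 and 19.8, close in size to that of Yap1. Pdgfd, which encodes a platelet-derived growth factor, read 6.59 to 17 in WT-labelled libraries and 0 in all KO-labelled libraries, at least 4.08-fold lower untreated and 4.94-fold with IFN-β. It passed the low-count filter only through the WT-labelled groups, so these values are given without a test. Dync2h1, a ciliary motor subunit beside Dcun1d5, did not pass the test, with log2 differences of -0.12 ± 0.44 (SE, adjusted p = 0.923) and -0.10 ± 0.44 (SE, adjusted p = 0.936). Mmp10, a close relative of Mmp3, read 1.94 to 43.9 in untreated WT-labelled libraries and 0 to 20.6 in those with IFN-β. In KO-labelled libraries it read at most 0.942. Mmp10 too passed the low-count filter only through WT-labelled libraries, so its values are given without a test.

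Leaving Pdgfd and Mmp10 aside, 9230110C19Rik was called lower in each treatment and Dync2h1 was not. Of all tested genes, 3.23% were called lower untreated and 3.64% with IFN-β. On chromosome 9 outside the stretch, the shares were 3.31% and 2.86% of 665 genes. The 4 neighbours lie among genes chosen for the same contrast and stand as a description of the stretch. Beyond its far end, the 5 nearest tested genes (Jrkl, Ccdc82, Maml2, Mtmr2 and Cep57) had log2 differences from -0.35 to 0.09 untreated and -0.27 to 0.12 with IFN-β. On the near side lies Casp1, a caspase next to Casp4 that matures interleukin-1β. It had 70 reads over the WT-labelled libraries and 1 over the KO-labelled ones. As it passed the low-count filter only through WT-labelled libraries, it is given without a test. The other 4 on that side, Gucy1a2, Aasdhppt, Kbtbd3 and 8430410K20Rik, ran from -0.48 to 0.82 untreated. Along the stretch, genes with wide differences and genes near 0 stood side by side.

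**Figure D2:**
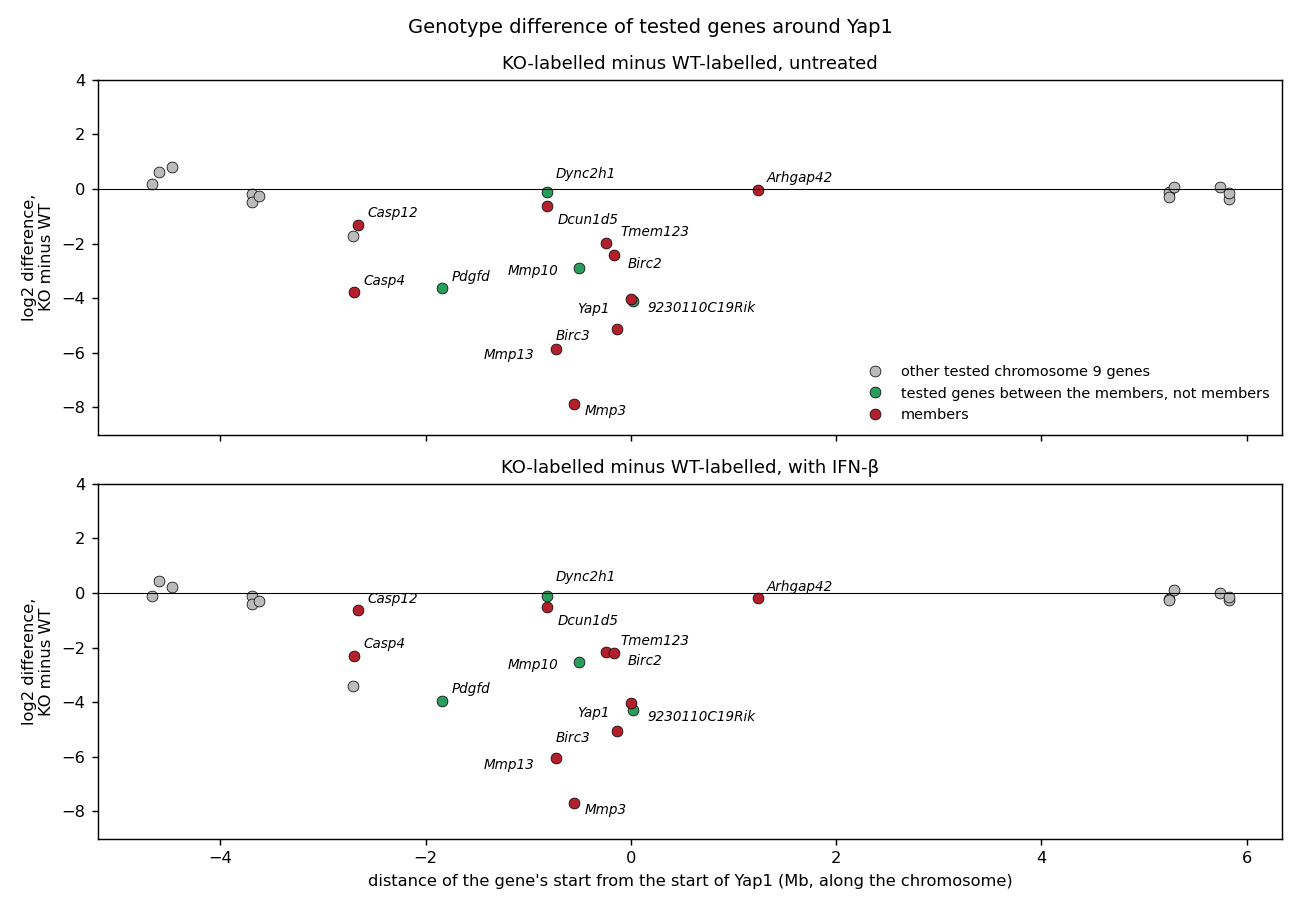
The horizontal axis is the distance of each tested gene's start from the Yap1 start (Mb) and the vertical axis the log2 difference, KO-labelled minus WT-labelled, untreated above and with IFN-β below. The largest differences stand between Mmp13 and 9230110C19Rik, while Dync2h1, Dcun1d5 and Arhgap42 lie between -0.63 and -0.02 untreated and Casp4 and Pdgfd stand low farther away.

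IFN-β asked a separate question, whether these genes respond to the cytokine, and the choice of members did not use it. In WT-labelled cells 1 of 10 rose, where 2.21% of tested genes rose, and in KO-labelled cells 1 of 10 rose, where 1.83% did. No member was called lower. In KO-labelled cells Mmp3 and Mmp13, counted in the 10, lay at or under the floor, so neither could fall there. Casp4 was the gene that rose in both labels. Its level went from 35.1, 179 and 72.3 to 501, 756 and 603 in WT-labelled cells, a log2 fold change of 2.97 ± 0.63 (SE, adjusted p = 0.048). In KO-labelled cells it went from 2.1 and 9.42 to 86.6 and 177, a change of 4.46 ± 0.77 (SE, adjusted p = 0.018). Neither pair of groups overlapped. The WT-labelled call sat at the threshold: it was lost in 7 of the 10 fits without 1 library, with adjusted p up to 0.228, and held only without the untreated WT-labelled library numbered 2 or either untreated KO-labelled library. With edgeR's quasi-likelihood test the adjusted p was 0.058, and with the replicate number as a block it was 0.00049. The KO-labelled call was lost without the untreated library numbered 1 (adjusted p = 0.119) or the IFN-β library numbered 2 (0.169), and with the block it was 0.00017.

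Casp12 moved the same way without passing the test. Its log2 fold change was 1.35 ± 0.75 (SE, adjusted p = 1) in WT-labelled and 2.02 ± 0.91 (SE, adjusted p = 1) in KO-labelled cells, and ran from 0.86 to 1.78 and from 0.75 to 3.29 without 1 library. With the replicate number as a block both changes passed, at adjusted p = 0.0048 and 0.0018, and 2 of 10 members then rose in each, where 4.68% and 3.37% of all genes did. Within each replicate number the IFN-β library was higher than the untreated one, as from 210 to 591, 626 to 1494 and 547 to 1363 in WT-labelled cells. Yap1 changed by 0.22 ± 0.17 (SE, adjusted p = 1) in WT-labelled and 0.22 ± 0.21 (SE, adjusted p = 1) in KO-labelled cells. The other 7 members ran from -0.21 to 0.95 over both labels, and none passed. Among them, the KO-labelled changes of Mmp3 and Mmp13, 0.0 and 0.75, rest on reads at or under the floor and measure no response.

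Whether the IFN-β response differed between the labels was tested as an interaction. No member passed, nor did any of the 12313 genes by limma (0.0%); 36 genes, and 0 members, had an unadjusted p under 0.05. By edgeR 0 genes passed, with 39 at an unadjusted p under 0.05, and DESeq2 called 1 gene, not a member. Casp4 differed by 1.49 ± 1.00 (SE, adjusted p = 1) and Casp12 by 0.66 ± 1.18 (SE, adjusted p = 1), with KO-labelled cells giving the larger rise, so differences of this size were not resolved with 3 and 2 libraries per group.

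**Figure D3:**
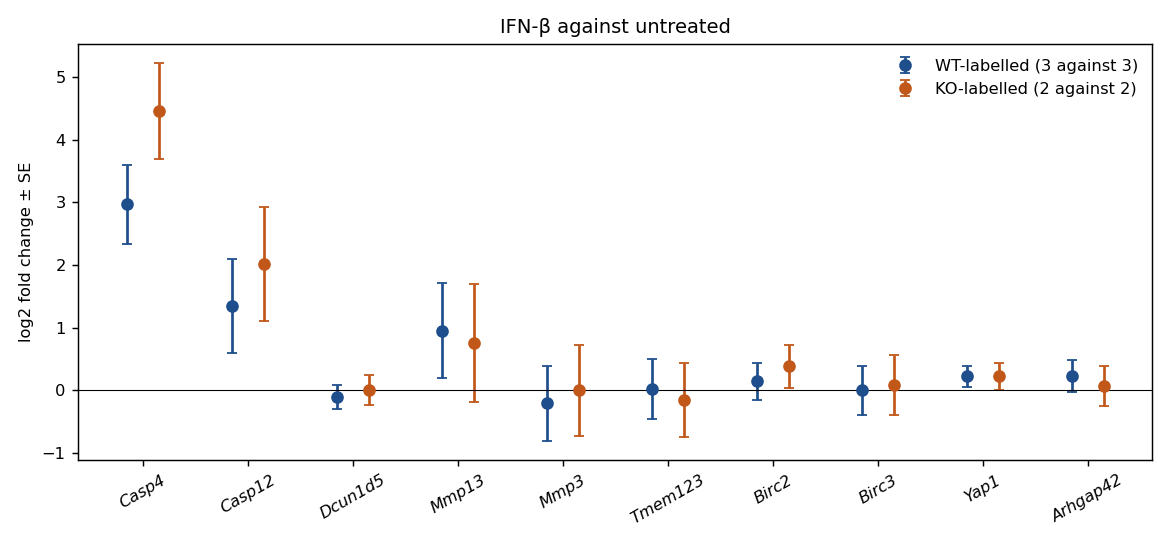
The vertical axis is the log2 fold change with IFN-β against untreated, with bars of 1 SE, for the 10 genes in order along the chromosome on the horizontal axis; blue is WT-labelled and orange KO-labelled. Casp4 stands highest in both labels at 2.97 and 4.46, Casp12 next, and the others lie between -0.21 and 0.95. The orange points of Mmp3 and Mmp13 rest on reads at or under the floor.

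Between libraries numbered 2 and those numbered 1, with the groups accounted for, 6 of 10 members differed. As 48.6% of all tested genes did so, nothing particular to the members is read from that count. Casp12 was higher in number 2 by a log2 difference of 1.81 ± 0.17 (SE, adjusted p = 0.00022) and Casp4 by 1.42 ± 0.26 (SE, adjusted p = 0.003). Birc3 was higher by 0.83 ± 0.16 (SE, adjusted p = 0.0035) and Birc2 by 0.45 ± 0.10 (SE, adjusted p = 0.0076). Tmem123 was lower by a log2 difference of -1.04 ± 0.22 (SE, adjusted p = 0.0055) and Dcun1d5 by -0.36 ± 0.10 (SE, adjusted p = 0.017), the latter lost in 4 of the 10 fits without 1 library, with adjusted p up to 0.079. Yap1 gave 0.11 ± 0.10 (SE, adjusted p = 0.355). What a replicate number marks is not given in the labels. Of the 6 members that differed, 4 were higher and 2 lower in number 2, and the cause was not tested.

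As a description over 10 libraries, which share their replicate numbers, deviations from the group means correlated at 0.87 for Yap1 with Birc2, 0.83 for Mmp3 with Mmp13, 0.88 for Tmem123 with Dcun1d5 and 0.88 for Casp4 with Casp12. Mmp3 was at 0 in all 4 KO-labelled libraries, so the 0.83 rests on the 6 WT-labelled ones. Birc3 followed Casp12 and 9230110C19Rik, at 0.96 each, more closely than Yap1, at 0.44. Tmem123 and Casp12 ran in opposite directions, at -0.83.

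**Figure D4:**
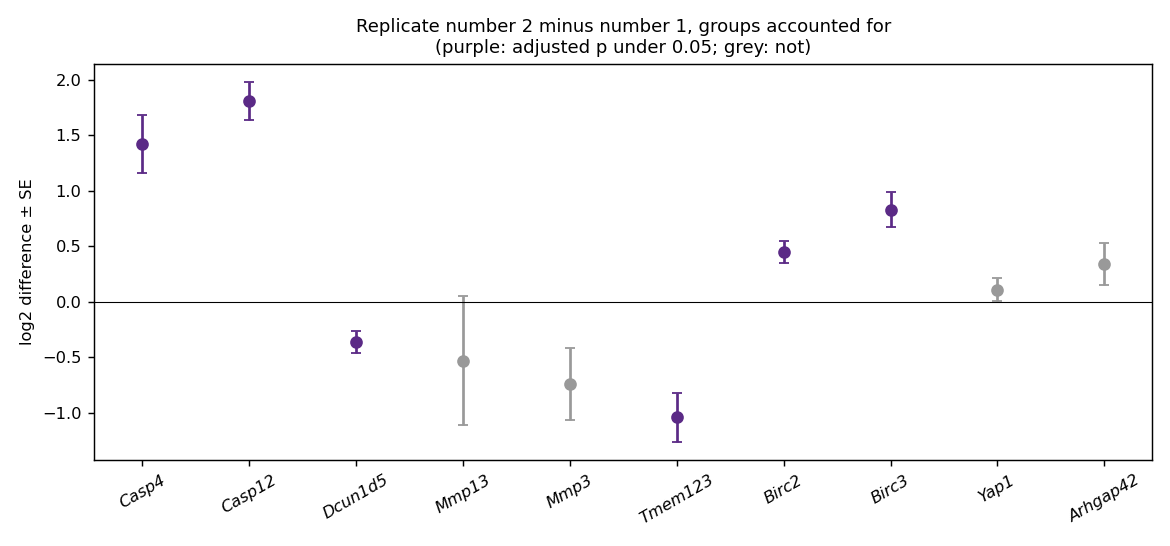
The vertical axis is the log2 difference between libraries numbered 2 and 1 after the 4 groups are accounted for, with bars of 1 SE, and the horizontal axis the 10 genes in order along the chromosome. Casp4, Casp12, Birc2 and Birc3 are above 0 and Tmem123 and Dcun1d5 below it among those that passed (purple), while Yap1 lies at 0.11.

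By level over the 10 libraries, the 3 genes most like Yap1 were Rragb on chromosome X, Kdm5d on chromosome Y and Vstm2a on chromosome 11, each at a Pearson r of 0.998 on the log2 scale. All are at or near 0 in KO-labelled libraries, and 181 genes had an r over 0.95, so likeness here mostly restates the difference between the cultures.

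Genes that work with the members were read from lists chosen with earlier results known. Over all tested genes 3.0% were called higher and 3.23% lower in untreated KO-labelled cells, and 2.92% and 3.64% with IFN-β; with the block 26.6% and 26.0% were called in either direction. Of 20 Hippo kinases and partners, 1 was called by limma in each treatment, and it was lower. That gene was Ptpn14, a phosphatase that binds YAP, at -0.78 ± 0.19 (SE, adjusted p = 0.041) untreated and -0.89 ± 0.19 (SE, adjusted p = 0.023) with IFN-β; with the block 5 and 6 were lower. The Ptpn14 call was lost in 9 of 10 fits without 1 library untreated and in 5 of 10 with IFN-β. Wwtr1, the YAP relative TAZ, named after its values were seen, was at 0.60 ± 0.22 (SE, adjusted p = 0.15) and did not pass. Ptpn14 also rose with IFN-β in WT-labelled cells, by 0.92 ± 0.17 (SE, adjusted p = 0.018), a call lost in 4 of 10 fits without 1 library. In KO-labelled cells its change was 0.81 ± 0.20 (SE, adjusted p = 0.141).

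Of 22 YAP target genes, all tested, 2 were higher and 1 lower in untreated KO-labelled cells, and 1 higher and 1 lower with IFN-β, beside a ratio of 16.3 in Yap1 itself. The higher genes were F3, the coagulation initiator tissue factor, at 2.27 ± 0.55 (SE, adjusted p = 0.043) untreated, and Asap1, an ARF regulator, at 0.77 ± 0.16 (SE, adjusted p = 0.024) untreated and 0.66 ± 0.16 (SE, adjusted p = 0.043) with IFN-β. The lower gene was Ptpn14 again. Without 1 library the F3 call was lost in 8 of 10 fits and the Asap1 call in 4 and 7 of 10. The list's median log2 difference was -0.15 untreated and -0.23 with IFN-β, where that of all genes was 0.0. With the block 6 were higher and 3 lower untreated, and 5 higher and 4 lower with IFN-β, so called targets stood on both sides of 0 in each fit. Several targets differed widely between replicate numbers: Ctgf was lower in number 2 by a log2 difference of -5.35, Cyr61 by -3.65, Ankrd1 by -2.2 and Crim1 by -1.91, named after their values were seen. Without the block their standard errors between the labels were 0.88 to 2.38, so changes in these genes were not resolved in that fit. With the block the standard errors were 0.34 to 0.48. The log2 differences then ran from -0.73 to 0.02 untreated and from -0.66 to -0.37 with IFN-β. None of them passed by limma with the block (adjusted p from 0.16 to 0.997).

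Among 23 tested partners of the cIAP proteins, Cyld, a deubiquitinase that restrains NF-κB signalling, was higher in KO-labelled cells, at 1.22 ± 0.17 (SE, adjusted p = 0.0039) untreated and 0.98 ± 0.17 (SE, adjusted p = 0.011) with IFN-β. By limma and edgeR 1 gene was called in each treatment, and by DESeq2 3 untreated and 1 with IFN-β; with the block 2 were higher and 3 lower in each, and without 1 library the Cyld call was lost in 0 and 1 of 10 fits. Rnf31, a subunit of the linear ubiquitin ligase, rose with IFN-β by 1.27 ± 0.16 (SE, adjusted p = 0.0017) in WT-labelled and 1.30 ± 0.19 (SE, adjusted p = 0.0069) in KO-labelled cells. The KO-labelled call did not hold in every fit without 1 library, where the change ran from 1.1 to 1.5.

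In the inflammatory caspase pathway 9 of 17 listed genes were tested. Gsdmd, the gasdermin that CASP4 cleaves, was higher in KO-labelled cells at 3.45 ± 0.41 (SE, adjusted p = 0.0016) untreated and 2.93 ± 0.41 (SE, adjusted p = 0.0037) with IFN-β, opposite in direction to the values of Casp4. It was the gene of the list called by limma and by edgeR, while DESeq2 called 3 untreated and 2 with IFN-β. The list's median log2 difference was -1.72 untreated and -0.54 with IFN-β. The untreated median is the value of Casp1, which passed the low-count filter only through WT-labelled libraries. With the block 2 genes were higher and 4 lower in each treatment. Casp1 is among the 4 lower with IFN-β, so nothing is read from that count. The guanylate-binding proteins Gbp2, Gbp3 and Gbp5, which help expose bacterial lipopolysaccharide, rose with IFN-β in both labels, with log2 fold changes of 4.57, 5.06 and 6.16 in WT-labelled and 6.88, 8.04 and 6.84 in KO-labelled cells, at adjusted p from 0.0008 to 0.018. Without 1 library the Gbp2 call was lost in 5 of 10 fits in WT-labelled and in 1 of 10 in KO-labelled cells, and edgeR called 2 of the 3 in KO-labelled cells. The Gbp3 change in KO-labelled cells ran from 6.46 to 9.62 without 1 library. Of 12 tested metalloproteases and inhibitors outside the stretch, 0 passed in any comparison by limma or edgeR, while 6 and 5 had an unadjusted p under 0.05 between the labels and DESeq2 called 1 in each treatment. With the block 3 were higher and 4 lower in untreated KO-labelled cells and 4 and 4 with IFN-β. Of 18 neddylation enzymes, Nae1, a subunit of the NEDD8-activating enzyme, was the gene called by limma between the labels, lower in KO-labelled cells at -0.93 ± 0.20 (SE, adjusted p = 0.026) untreated and -0.87 ± 0.20 (SE, adjusted p = 0.034) with IFN-β; with the block 2 were higher and 5 lower untreated and 1 and 4 with IFN-β, and DESeq2 called 3 in each. The Nae1 call was lost in 4 and 6 of 10 fits without 1 library.

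Markers of other cell types were read beside the difference between labels. Of 9 tested fibroblast markers 0 passed by limma or edgeR, with 2 at an unadjusted p under 0.05 untreated and 1 with IFN-β, where DESeq2 called 0 and 1. With the block 2 were higher in KO-labelled cells. Macrophage markers summed to between 60.2 and 103 normalised reads in every library. Among neural markers, Nes was lower (-2.09 ± 0.38, SE, adjusted p = 0.013) and Sox2 higher (7.35 ± 0.52, SE) in untreated KO-labelled cells. Neural markers summed to at most 1386 in untreated KO-labelled libraries, so that difference leaves Sox2 few reads in WT-labelled ones. Sox2 is therefore given without a test. Of the cartilage and bone markers, Acan was higher in untreated KO-labelled cells (3.74 ± 0.60, SE, adjusted p = 0.0072). Their part in the results on the chromosome 9 genes was not tested.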

How the data were processed

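RNA sequencing of 10 mouse fibroblast libraries was analysed. Total RNA was made into stranded libraries, per the labels' protocols and design text. Per the submitters' processing notes, cutadapt 1.13, STAR 2.5.2a, HTSeq, DESeq2 and the mm10 genome were used; the annotation, strand setting and filters are not given in the sources used here. The deposited tables hold a signal, namely reads per gene divided by the authors' size factor, judged from the values. Whole reads were recovered for 100% of values in each library, within 0.001 reads, so that the floor of 3 reads came to 2.73 to 3.29 normalised reads. Counting error alone enters the intervals and floors.

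As the values were not raw counts, limma-trend was used (R 4.3.3, limma 3.58.1), fitted to log2 of the value plus a pseudocount of 1, with 4 group means over 10 libraries. Genes passed filterByExpr (edgeR 4.0.16, minimum count 10), which left 12313, the 10 members included. Benjamini-Hochberg adjustment ran over all of them, two-sided, with calls at 0.05. Fold changes on this scale are understated for low genes. The scripts were tested on simulated data. Alternatives were the replicate block, pseudocounts of 0.5 and 5, no filter, TMM scaling, edgeR's quasi-likelihood test, DESeq2 1.42.0, only the groups compared, and leaving out each library. The edgeR fit with the block, the left-out libraries with the block, and the comparison of replicate numbers were added after seeing the data. The members and lists were chosen with earlier results of these data known. Named besides the members were Slfn2, tested genes of the stretch, the 5 nearest tested genes on each side, up to 4 passing genes per list and comparison, and the 3 genes most like Yap1.

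The replicate numbers pair the samples by the data, not by the labels. Libraries that share a number deviated together from their groups' means (r from 0.48 to 0.871), and for unlike numbers r was at most 0.318. In a KO-labelled group of 2 libraries the deviations mirror each other. Any library then has r of equal size and opposite sign with those 2, as 0.871 and -0.871. Such pairs with unlike numbers add no separate support. Positions are from GENCODE M21 and RefSeq on GRCm38; of 23337 symbols, 20953 matched GENCODE, 205 a RefSeq symbol, 1951 an older RefSeq symbol and 228 none.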

Additional observations from a re-analysis of the deposited data

How the results depend on the processing

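The count of members that rose with IFN-β in WT-labelled cells, 1 as reported, was 2 with the replicate number as a block and with edgeR plus the block. It was 0 with a pseudocount of 0.5, without the low-count filter and with edgeR (adjusted p for Casp4 0.058, 0.054 and 0.058), and 0 to 1 when a library was left out (2 with the block). In KO-labelled cells the count of 1 became 2 with the block, by limma and by edgeR, and 0 when only the groups compared entered the fit (Casp4 at adjusted p = 0.396); it was 0 to 1 when a library was left out (2 with the block). DESeq2 called Casp4 in both, at 0.00013 and 3e-06. Calls of Pdgfd are not compared between settings, as it is given without a test. The difference of 9230110C19Rik ran from -4.43 to -3.79 untreated and from -4.42 to -4.2 with IFN-β without 1 library. The median difference with IFN-β, -2.24, ran from -2.64 to -2.19 without 1 library and from -2.5 to -2.06 with the block. Values near 0 changed sign: the difference of Arhgap42 between the labels, from -0.4 to 0.36 untreated and -0.57 to 0.21 with IFN-β without 1 library, that of Casp12 with IFN-β, from -1.54 to 0.26, that of Dync2h1, at 0.06 untreated and 0.08 with IFN-β under the block (0.06 with edgeR and the block in each) and from -0.75 to 0.52 and -0.53 to 0.34 without 1 library, and the Casp12 interaction, from -0.61 to 1.93 without 1 library. The cause was not tested. Beyond the values given beside results, the block changed no other member's call. Restricting the interaction to the groups compared is the same fit and was not run separately. Reads below the floor limit Mmp3, Mmp13 and Pdgfd in KO-labelled cells and Casp4 in untreated ones, where a pseudocount of 5 moved its IFN-β change from 4.46 to 3.67.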

Other observations

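Of the 17 further genes that the annotation places in the stretch, 13 had too few reads to test. Over the 6 WT-labelled libraries 8 of the 13 had a read, with 14 to 23 reads per library and 106 in all, led by the metalloproteases Mmp7 with 29 and Mmp8 with 27 and by Pgr, the progesterone receptor, with 24. Over the 4 KO-labelled libraries the 13 genes had 1 read in all, and 5 of them had 0 reads in every library. These sums are values of single cultures with no test.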
